A study of Homo sapiens with 62 samples.

Results

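The genes described here are hepatoblast markers and proteins that the liver secretes into the blood, together with 4 liver genes whose products are not secreted (CEBPA, PROX1, FABP1 and SLC2A2). They were chosen by name, as 38 gene symbols, and matched 41 of the 37415 rows of the deposited expression table. For 37 symbols 1 row lies on the primary chromosomes, and those 37 rows are the members used here. The rows of APOM lie only on alternate assemblies and were listed at no more than 0.46 TPM, so they cannot be read as the level of that gene. A second SERPINA1 row on an alternate assembly followed the first, and SERPINA1 is given with that uncertainty.

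Bulk polyA RNA-seq was made on 62 libraries, 31 groups of 2, from organoids and stem cells of WIBR3, an established human embryonic stem cell (hESC) line. The hepatic libraries were NEAT1-/- clone 2 and clone 1 at day 21, CTR at day 21, WT at day 21 and, at day 17, WT in the Chip and in the PN96 format. Unless Chip or SPIN is named, every organoid library carries the label PN96, and the labels do not spell out these format names. The same genes were read in nephron organoids (both NEAT1-/- clones and CTR at day 13, WT at day 7) and in lung organoids (both clones and CTR at day 19, WT at day 20). They were also read in cortical organoids (WT SPIN at day 60, WT Chip at day 54 and WT PN96 at day 53, and both clones and CTR at day 19). The 22 hESC libraries were both clones and CTR at day 0, and WIBR3 cells with and without PF127, an agent the labels do not explain, at 0, 1, 4 and 24 h. Of these only hESC CTR enters a comparison here. NEAT1 is a long non-coding RNA, and the series asks how its loss affects gene expression in each tissue. Each knockout arm is 1 clone with 2 libraries, and CTR and WT are separate labels of the same line. Whether both libraries of a group stem from separate cultures is not stated, so p-values measure only the spread between these libraries, which may be technical.

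Hepatoblasts are the progenitors of the embryonic liver and give rise to hepatocytes and to bile duct cells. They secrete alpha-fetoprotein (AFP), a major serum protein before birth, and switch to albumin (ALB) as hepatocytes mature. Hepatocytes also make the plasma carriers of thyroid hormone, retinol, iron and haem, the apolipoproteins that package lipid, the clotting factors and most protease inhibitors of blood. Several of these genes are also used elsewhere: the yolk sac makes AFP, TTR and apolipoproteins, the choroid plexus of the brain makes TTR, and many cells make APOE.

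The deposited values are TPM, a transcript abundance, which are scaled for gene length and sum to 1000000 in each library, so the sequencing depth is unknown. Replicate libraries correlated at 0.969 to 0.993 (Pearson, log2(TPM + 1), across genes, which are not independent replicates), and 16989 to 20396 genes reached 1 TPM. NEAT1 read 0.142 to 0.566 TPM in the 4 hepatic knockout libraries, against 39.8 and 44.3 TPM in hepatic CTR. In nephron organoids it read 0.0207 to 0.590 TPM in knockout libraries, against 30.7 and 44.2 TPM in CTR. In lung organoids it read 0.192 to 0.869 TPM in knockout libraries, against 10.8 and 21.7 TPM in CTR. The hepatic label was set beside liver transcription factors outside the members: HNF4A read 5.02 to 27.9 TPM and FOXA2 10.2 to 40.7 TPM over the 12 hepatic libraries. All 15 listed factors summed to 258 to 518 TPM there, against 284 and 273 TPM in nephron CTR and 209 and 218 TPM in hESC CTR. That sum overlaps between tissues and is by itself no check of the label. Several genes of mature hepatocytes were near 0, with CYP3A4 at most 0.659 TPM and TAT at most 0.216 TPM, while CPS1, of the urea cycle, read 13.4 to 53.9 TPM, and the bile duct keratin KRT19 read 529 to 2971 TPM. The mature hepatocyte list summed to 30.3 to 168 TPM over the hepatic libraries, 30.3 to 48.5 TPM in WT, against 41.9 to 61.3 TPM over the nephron libraries. The bile duct list summed to 1048 to 3484 TPM over the hepatic libraries, against 642 and 684 TPM in hESC CTR. The second library of hepatic clone 2 stands apart. It had lower values than the first for 35 of the 36 members that reached 1 TPM in either library of the clone, with a median log2 difference of 1.96. The share of TPM from mitochondrial mRNAs was 14.4% and 11.7% in clone 2 and close to 14% in both clone 1 libraries, against 13.9% and 12.9% in CTR. Over all genes the 2 clone 2 libraries correlated at 0.973, the lowest of the 6 hepatic groups (up to 0.989), while the lowest of all groups was 0.969. The second library was singled out on the members' own values. The hepatic knockout comparisons are given with and without it, and the fit without it is no test of the members' rise.

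Of the 37 members, 31 to 37 reached 1 TPM in each hepatic library, and their total level differed widely between libraries. They held 4.22% and 0.989% of all TPM in clone 2, 6.27% and 4.11% in clone 1, 1.4% and 1.7% in CTR, and 1.02% and 0.564% in WT at day 21. At day 17 they held 1.23% and 1.26% in the Chip format and 0.593% and 0.951% in PN96. AFP alone made up 22.6% to 47.3% of the members' TPM in these libraries. The first library of clone 1 was the highest of the 12 for 28 members, and the second WT library of day 21 was the lowest for 15.

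**Figure D1:**
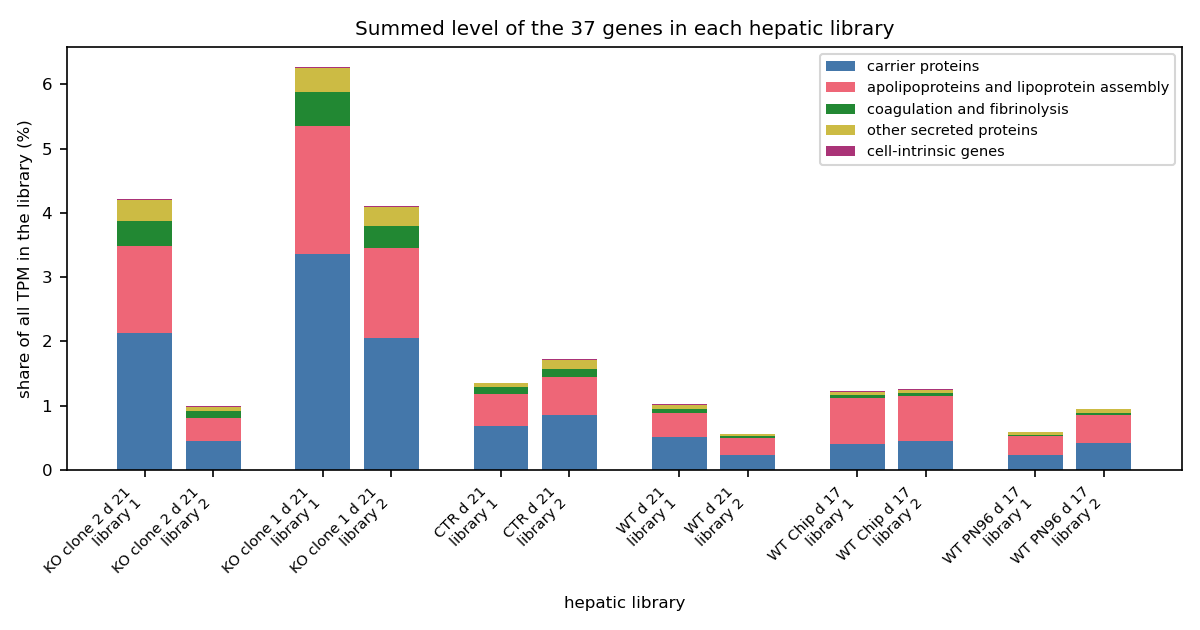
Share of all TPM (percent) held by the members in each of the 12 hepatic libraries, stacked by role. The second library of clone 2 holds 0.989%, below both CTR libraries, while the other 3 knockout libraries hold 4.11% to 6.27%.

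The promoters of the members with the highest levels show which sequences lie before the genes that carry most of this signal. The 4 highest in hepatic CTR and the 4 highest in WT and CTR organoids of other tissues are AFP, APOE, APOA1, APOA2, TTR and APOC1, and RefSeq windows (GRCh38.p14) were at hand for AFP, APOE, APOA2 and APOC1. Each is given 5′ to 3′ on the gene's own strand as the 250 bases before the annotated start, with motif matches in capitals. The windows are chr4:73435971-73436220 (plus strand) for AFP, chr19:44905546-44905795 (plus) for APOE at the most upstream of 3 starts, chr1:161223629-161223878 (minus) for APOA2 and chr19:44914422-44914671 (plus) for APOC1.
AFP: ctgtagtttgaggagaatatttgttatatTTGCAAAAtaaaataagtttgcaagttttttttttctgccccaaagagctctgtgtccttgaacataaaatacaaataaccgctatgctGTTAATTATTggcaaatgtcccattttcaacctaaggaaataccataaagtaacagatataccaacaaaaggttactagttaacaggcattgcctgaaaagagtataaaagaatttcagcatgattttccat
APOE: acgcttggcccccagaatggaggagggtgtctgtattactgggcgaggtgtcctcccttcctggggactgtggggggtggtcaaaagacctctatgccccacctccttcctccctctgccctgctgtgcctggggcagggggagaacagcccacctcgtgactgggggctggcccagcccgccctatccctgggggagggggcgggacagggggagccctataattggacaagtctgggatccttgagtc
APOA2: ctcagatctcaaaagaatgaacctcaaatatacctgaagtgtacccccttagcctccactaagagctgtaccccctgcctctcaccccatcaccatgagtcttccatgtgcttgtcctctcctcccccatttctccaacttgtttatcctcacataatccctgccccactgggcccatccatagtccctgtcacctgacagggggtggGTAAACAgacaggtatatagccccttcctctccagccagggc
APOC1: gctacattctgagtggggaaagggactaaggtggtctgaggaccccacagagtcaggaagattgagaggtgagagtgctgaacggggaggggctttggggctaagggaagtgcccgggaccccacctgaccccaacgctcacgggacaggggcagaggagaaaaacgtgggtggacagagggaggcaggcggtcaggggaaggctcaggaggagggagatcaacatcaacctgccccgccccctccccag

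Both strands were searched for 4 liver factor motifs: HNF1 as GTTAAT followed, 1 base on, by ATT, HNF4 as CAAAGTCCA, FOXA as TGTTTAC and C/EBP as TTGCNNAA. In the AFP window the C/EBP letters lie 221 to 214 bases and the HNF1 letters 132 to 123 bases before the start. The APOA2 window holds the FOXA letters on the opposite strand, 42 to 36 bases before the start, and APOE and APOC1 held none of the 4 motifs. Of the 27 members with a window, 10 held at least 1 motif. C/EBP matched 9 members (33.3%), against 9.12% of the 27326 promoters in the table, and HNF1 matched 2 members, AFP and FGA (7.41%), against 0.282%. FOXA matched APOA2 and KNG1 (7.41%), against 3.02%, and HNF4 matched AHSG (3.70%), against 0.289%. No 2 matches overlapped. A match describes these letters and is not a bound site.

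The first comparison asks how far the hepatic organoids stand above the cells they came from, and above the organoids labelled lung. AFP read 5739 and 7447 TPM in hepatic CTR at day 21, against 0.595 and 0.177 TPM in hESC CTR, a log2(TPM + 1) difference of 12.22 ± 0.46 (SE). ALB, TTR, FGA, APOA4 and SERPINA1 were listed at 0 in both hESC CTR libraries. Of the 36 members tested, 32 rose and none fell in hepatic CTR (limma, Benjamini-Hochberg adjusted p under 0.05 over all 24744 genes), where 45.9% of all genes passed the test and 26.3% were higher. The median log2 difference was 4.44 over the members and 0.07 over all genes. In bulk libraries such as these, fewer cells of a type and less RNA per cell cannot be told apart.

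By role, all 9 apolipoprotein and lipoprotein assembly genes rose, led by APOA2 (9.52), APOA4 (9.48) and APOA1 (9.40), which are carried on high density lipoprotein or chylomicrons. APOB, the scaffold protein of low density lipoprotein, rose by 7.38, and APOE, a ligand of lipoprotein receptors, by 1.16 ± 0.24 (limma adjusted p = 0.000482). APOE was already at 777 and 726 TPM in hESC CTR, against 1714 and 1648 TPM in hepatic CTR. Among 8 clotting genes 7 rose, with the fibrinogen chains at 8.85 (FGA), 8.73 (FGB) and 7.05 (FGG). Of the 9 carriers 7 rose, with TTR, the thyroxine carrier, at 9.61, RBP4, the retinol carrier, at 6.92 and ALB at 5.58 ± 0.75. Of the 7 other secreted genes 6 rose, among them AHSG (7.97), a mineral-binding fetal glycoprotein, and VTN (7.85), an adhesion protein of plasma. Among the genes not secreted, FABP1, the liver fatty acid binding protein, rose by 5.42, CEBPA, a liver transcription factor, by 3.47, and PROX1, a transcription factor of the liver bud and of lymphatic vessels, by 1.5. KNG1, HP and ITIH3 did not pass the test. SLC2A2, the liver glucose transporter, was not tested, since it reached 1 TPM in only 1 library, a hepatic one at 1.30 TPM. CP, the copper carrier ceruloplasmin, read 9.0 and 7.21 TPM in hepatic CTR, against 10.8 and 10.9 TPM in hESC CTR, a difference of -0.39 (limma adjusted p = 0.116).

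**Figure D2:**
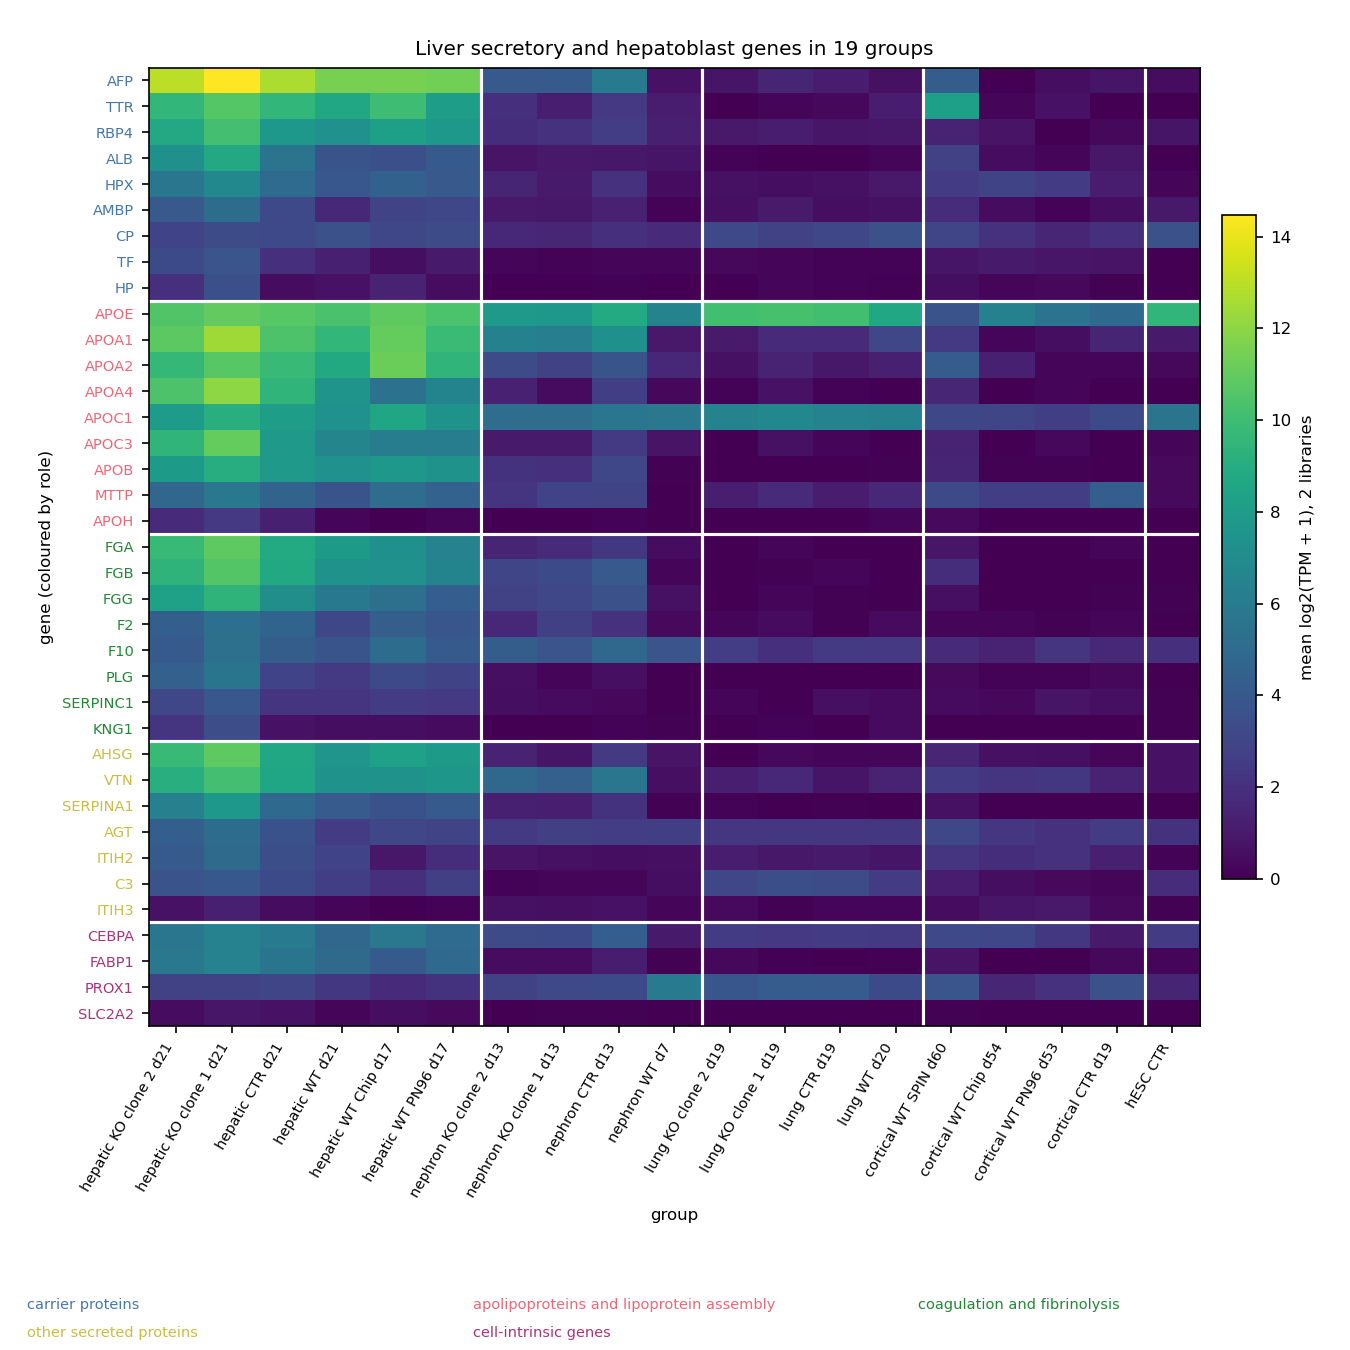
Mean log2(TPM + 1) of the 37 members (rows, coloured by role) in 19 groups of 2 libraries each (columns). Most high values lie in the 6 hepatic columns. Some genes are also read in other tissues, among them APOE, APOC1, PROX1, CP, AGT, CEBPA, F10 and MTTP.

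Against lung CTR at day 19, 30 members rose in hepatic CTR and PROX1 fell, where 41.7% of all genes passed the test, 23.6% higher and 18.1% lower. The AFP difference was 11.60 on the log2 scale, and that of APOE 0.64 (limma adjusted p = 0.0355). PROX1 read 5.69 and 8.80 TPM in hepatic CTR, against 23.4 and 12.4 TPM in lung CTR, and fell by 1.16 ± 0.25 (limma adjusted p = 0.000895). KNG1, HP, ITIH3, CP and C3, the central complement protein, did not pass this test.

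Related genes that are not members were read from lists of the same pathways and of other cell types. In hepatic CTR against hESC CTR, 9 of 11 tested genes of the other coagulation and complement list rose, among them SERPIND1, an inhibitor of thrombin (4.86), and F12 fell. Of 11 other apolipoprotein and lipoprotein assembly genes 6 rose, led by APOC2 (3.32), the cofactor of lipoprotein lipase, and CLU, the chaperone clusterin, was among those that fell. Of 14 liver transcription factors 9 rose, with TBX3 at 7.58 and GATA6 at 6.90, and 2 fell. In the mature hepatocyte list 6 of 11 rose, with ASGR2, a subunit of the asialoglycoprotein receptor, at 3.85. Other cell types rose too: all 8 stroma genes, all 8 of the visceral endoderm and yolk sac list (which holds TTR), 4 of 6 bile duct genes, 4 of 6 endothelial genes and 3 of 4 intestinal genes. In the nephron list 1 gene rose and 2 fell of 6, in the lung list 1 rose and 1 fell of 3, and none of 7 neural genes rose while 3 fell. In the pluripotency list 5 of 6 fell, yet its summed level was 1028 and 1189 TPM in hepatic CTR. The part of these cell types in the members' levels was not tested.

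Among the 12 hepatic libraries the members did not vary to the same degree. From the lowest to the highest library APOA4 spanned 7.08, ALB 6.32, FGG 5.62, APOC3 5.5 and FGA 5.20 log2 units. APOE spanned far less, from 1197 to 2174 TPM with a median of 1681 TPM, and CP read 5.99 to 12.5 TPM with a median of 8.34 TPM. The genes APOA4, APOC3 and APOA1 lie side by side on chromosome 11 (116820700 to 116837950, GENCODE, GRCh38), and their ratios within a library differed by group. For each 100 TPM of APOA1 there were 79.0 and 76.0 TPM of APOA4 in clone 2, 77 and 78.7 in clone 1, 33.7 and 79.5 in CTR, and 24.6 and 22.2 in WT at day 21. At day 17 the same ratio was 1.74 and 2.12 in Chip and 7.90 and 11.4 in PN96. APOC3, an inhibitor of lipoprotein lipase, stood at 44.9 and 35.6 per 100 of APOA1 in clone 2, 37.7 and 41.7 in clone 1, 9.29 and 28.6 in CTR, 11.8 and 13.1 in WT at day 21, 3.29 and 3.24 in Chip and 7.75 and 6.81 in PN96 at day 17. ALB, which lies beside AFP on chromosome 4, stood at 3.53 and 0.958 per 100 of AFP in clone 2, 2.35 and 1.53 in clone 1 and 0.537 and 0.957 in CTR, and at 0.289 to 0.668 in the 6 WT libraries. These ratios are descriptions with no test.

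**Figure D3:**
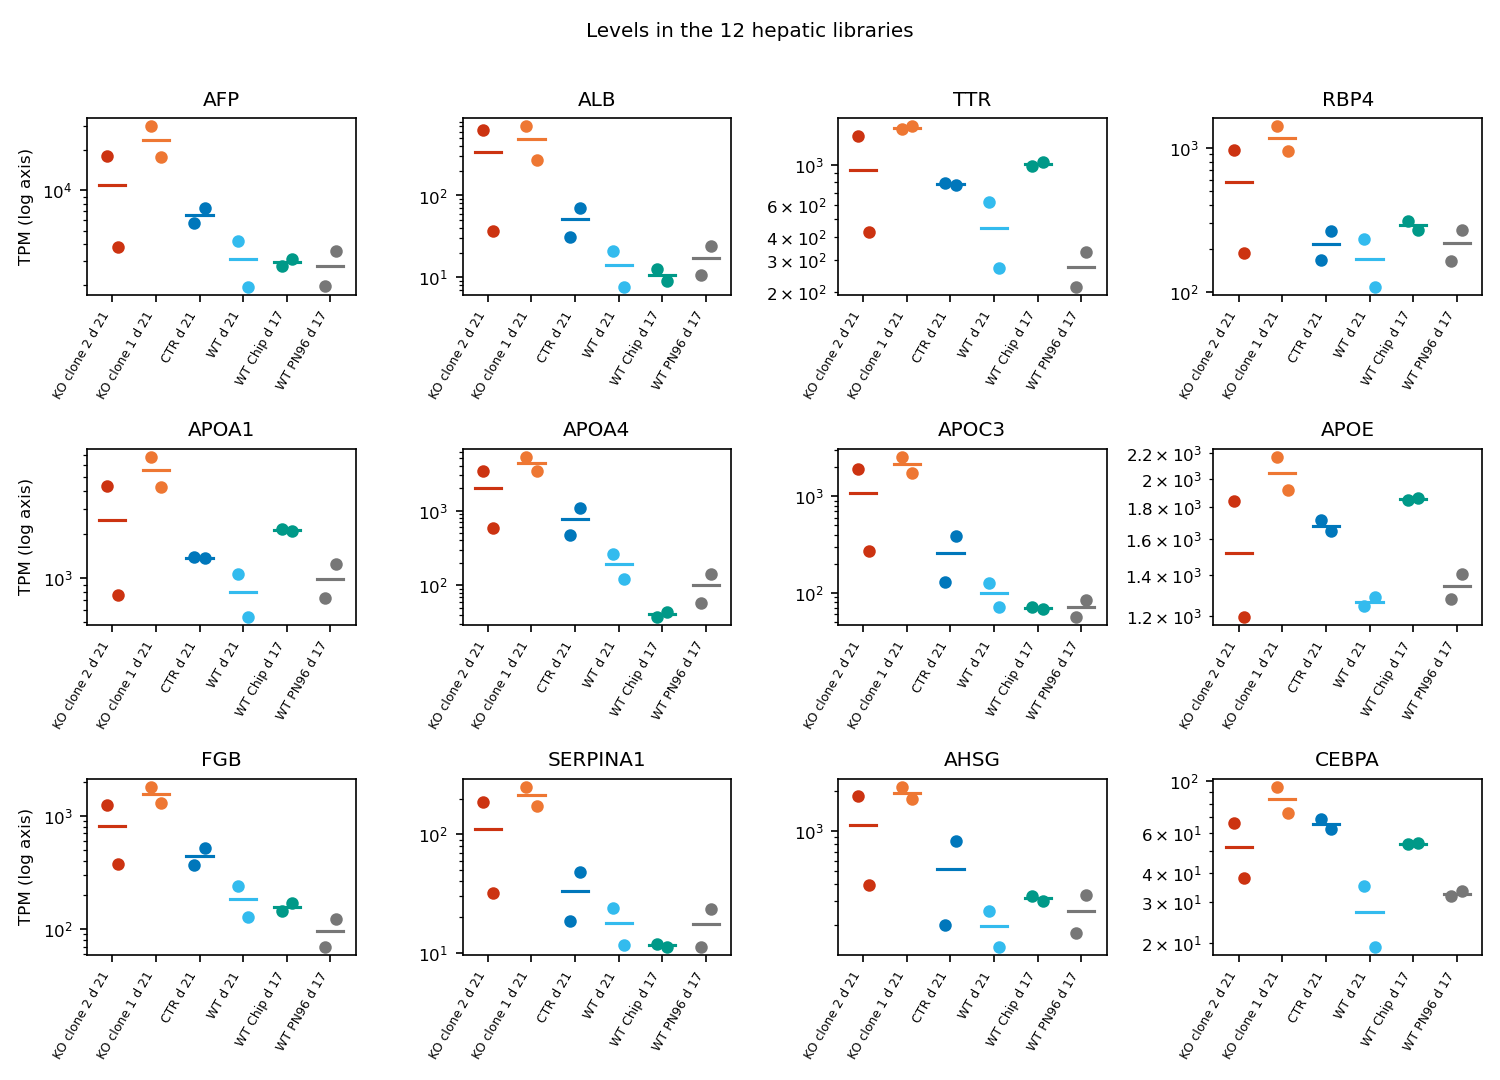
TPM (log axis) of 12 members in the 12 hepatic libraries by group, each point a library and each line the mean of 2. ALB, APOA4, APOC3 and SERPINA1 spread over more than APOE and CEBPA. The second clone 2 library lies below the first, by less for APOE and CEBPA than for the other genes shown.

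The hepatic knockout comparison asks what loss of NEAT1 does to these genes at day 21. In 3 of the 4 knockout libraries most members lay above both CTR libraries, and in the fourth most lay below or between them. Of the 37 members, 33 lay above both CTR libraries in the first library of clone 2 and 1 in the second. In clone 1, 35 lay above both in the first library and 34 in the second. Over all genes 46.3%, 43.8%, 41.6% and 37.1% lay above both CTR libraries in these 4 libraries, in the same order. The members' median log2 difference from the CTR mean was 1.5 and -0.32 in clone 2 and 1.93 and 1.34 in clone 1, while the median over all genes was between -0.02 and 0.07.

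**Figure D4:**
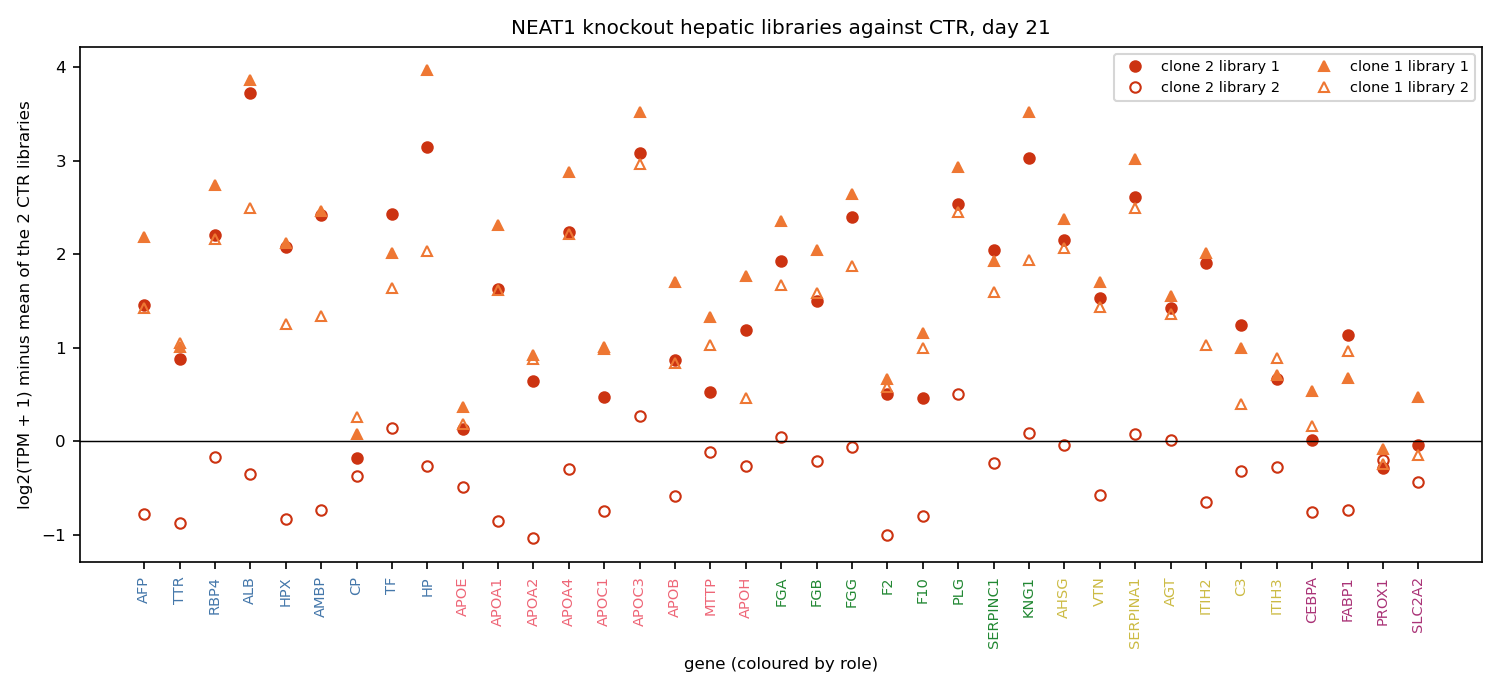
Difference in log2(TPM + 1) of each hepatic knockout library from the mean of the 2 CTR libraries, for the 37 members. The first library of clone 2 and both of clone 1 lie mostly above 0, and the second library of clone 2 mostly below.

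Among the carriers, ALB read 634 and 36.6 TPM in clone 2 and 697 and 270 TPM in clone 1, against 30.8 and 71.3 TPM in CTR. AFP read 17991 and 3820 TPM in clone 2 and 29661 and 17609 TPM in clone 1, against 5739 and 7447 TPM in CTR. TTR read 1439 and 425 TPM in clone 2 and 1572 and 1620 TPM in clone 1, against 787 and 772 TPM in CTR. In each of these 3 genes the second library of clone 2 overlapped or lay below CTR, and the other 3 knockout libraries lay above it. RBP4 read 969 and 187 TPM in clone 2 and 1405 and 942 TPM in clone 1, against 167 and 263 TPM in CTR. HP, the haemoglobin scavenger haptoglobin, read 11.6 and 0.179 TPM in clone 2 and 21.2 and 4.82 TPM in clone 1, against 0.363 and 0.481 TPM in CTR. For the iron carrier TF, the haem carrier HPX and AMBP, the precursor of alpha-1-microglobulin, the same 3 knockout libraries lay above both CTR libraries and the second of clone 2 below at least 1 of them. CP showed no such order and read 7.03 and 5.99 TPM in clone 2 and 8.54 and 9.82 TPM in clone 1, against 9.0 and 7.21 TPM in CTR.

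Among the apolipoproteins, APOA4 read 3380 and 581 TPM in clone 2 and 5282 and 3340 TPM in clone 1, against 470 and 1087 TPM in CTR. APOC3 read 1921 and 272 TPM in clone 2 and 2588 and 1768 TPM in clone 1, against 129 and 391 TPM in CTR. APOA1 read 4277 and 764 TPM in clone 2 and 6864 and 4242 TPM in clone 1, against 1393 and 1368 TPM in CTR. In these 3 genes too, the second library of clone 2 lay between or below the CTR libraries and the other 3 knockout libraries lay above them. APOE stayed within a narrow range, at 1844 and 1197 TPM in clone 2 and 2174 and 1918 TPM in clone 1, against 1714 and 1648 TPM in CTR. MTTP, the transfer protein that loads lipid onto APOB, read 34.0 and 21.4 TPM in clone 2 and 59.9 and 48.6 TPM in clone 1, against 22.5 and 24.0 TPM in CTR.

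Among the clotting genes, FGB, the fibrinogen beta chain, read 1240 and 377 TPM in clone 2 and 1804 and 1311 TPM in clone 1, against 366 and 523 TPM in CTR. PLG, the precursor of the clot-dissolving enzyme plasmin, read 42.7 and 9.67 TPM in clone 2 and 56.4 and 40.1 TPM in clone 1, against 3.44 and 11.7 TPM in CTR. KNG1, which encodes kininogen, read 12.2 and 0.720 TPM in clone 2 and 17.6 and 5.19 TPM in clone 1, against 0.586 and 0.652 TPM in CTR. KNG1 was the only one of the 37 members in which the 4 knockout libraries did not overlap CTR, where 10.4% of all genes were higher without overlap. FGA read 1759 and 477 TPM in clone 2 and 2367 and 1474 TPM in clone 1, against 420 and 506 TPM in CTR, and FGG 736 and 133 TPM in clone 2 and 877 and 514 TPM in clone 1, against 127 and 152 TPM in CTR. SERPINC1, the thrombin inhibitor antithrombin, read 17.7 and 2.85 TPM in clone 2 and 16.3 and 12.7 TPM in clone 1, against 2.86 and 4.32 TPM in CTR.

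Among the other secreted proteins, AHSG read 1828 and 397 TPM in clone 2 and 2135 and 1720 TPM in clone 1, against 199 and 837 TPM in CTR. VTN read 1105 and 256 TPM in clone 2 and 1253 and 1038 TPM in clone 1, against 369 and 396 TPM in CTR. SERPINA1, alpha-1-antitrypsin, read 189 and 31.7 TPM in clone 2 and 251 and 175 TPM in clone 1, against 18.6 and 48.2 TPM in CTR. AGT, the precursor of angiotensin, read 33.1 and 11.8 TPM in clone 2 and 36.1 and 31.5 TPM in clone 1, against 9.38 and 14.4 TPM in CTR. Once more the second library of clone 2 lay within or below the range of CTR in these genes, and the other 3 above it. The transcription factors spanned a narrower range. CEBPA read 65.9 and 38.0 TPM in clone 2 and 94.7 and 73.1 TPM in clone 1, against 68.3 and 62.0 TPM in CTR, and PROX1 5.65 and 6.05 TPM in clone 2 and 6.63 and 5.86 TPM in clone 1, against 5.69 and 8.80 TPM in CTR.

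With all 4 knockout libraries, none of the 36 tested members passed the limma test at an adjusted p under 0.05, where 0.0223% of all genes passed. At an unadjusted p under 0.05 there were 16 members. The estimated difference was positive for 33 of 36, with a median of 1.08 over the members and 0.03 over all genes. PLG had the lowest adjusted p, with a log2 difference of 2.11 ± 0.56 (limma adjusted p = 0.151), and the largest difference was that of APOC3, at 2.46 ± 0.69 (limma adjusted p = 0.164). ALB differed by 2.43 ± 0.96 (limma adjusted p = 0.269), KNG1 by 2.14 ± 0.70 (limma adjusted p = 0.202) and AFP by 1.07 ± 0.57 (limma adjusted p = 0.395). The median difference by role was 1.37 for carriers, 0.70 for apolipoproteins, 1.42 for clotting genes, 1.07 for other secreted genes and -0.01 for the genes not secreted.

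Without the second library of clone 2, 21 of the 36 members rose and none fell, where 6.06% of all genes passed and 3.28% were higher. ALB rose by 3.45 ± 0.59 (limma adjusted p = 0.0193), APOC3 by 3.17 ± 0.46 (limma adjusted p = 0.0130) and FGG, the fibrinogen gamma chain, by 2.33 ± 0.31 (limma adjusted p = 0.00971). KNG1 rose by 2.88 ± 0.43, APOA1 by 1.80 ± 0.35 and AGT by 1.44 ± 0.20. The library left out was singled out by the members' own low values, so this fit cannot serve as a test of their rise. By role the calls were 6 of 9 carriers, 4 of 9 apolipoproteins, 6 of 8 clotting genes, 4 of 7 other secreted genes and, of the 3 tested genes not secreted, FABP1 (0.98, limma adjusted p = 0.0497). AFP stood at 1.63 ± 0.41 (limma adjusted p = 0.0539) and AHSG at 2.19 (limma adjusted p = 0.0604), while APOE (0.21), CEBPA (0.18), PROX1 (-0.22) and CP (-0.00) were near 0. Leaving out any 1 of the other 5 knockout and CTR libraries gave no call among the members.

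Beside this result, no gene of the pathway and cell type lists passed the test with all libraries. The library that stands apart differed in those lists as well. Pluripotency genes summed to 1015 and 2184 TPM in clone 2 and 220 and 890 TPM in clone 1, against 1028 and 1189 TPM in CTR. Neural genes summed to 40.1 and 55.2 TPM in clone 2 and 8.12 and 16.8 TPM in clone 1, against 11.9 and 12.9 TPM in CTR. Stroma genes summed to 3289 and 1404 TPM in clone 2 and 8015 and 4113 TPM in clone 1, against 4392 and 2654 TPM in CTR. Mature hepatocyte genes summed to 140 and 54.2 TPM in clone 2 and 168 and 124 TPM in clone 1, against 69.7 and 81.6 TPM in CTR, and APOC2, which lies outside the members, read 77.7 and 7.39 TPM in clone 2 and 88.4 and 44.8 TPM in clone 1, against 7.61 and 10.5 TPM in CTR. Their part in the members' differences was not tested.

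Clone 2 and clone 1 were compared with each other, since each is a single line. All 36 tested members had a lower estimate in clone 2, with a median log2 difference of -1.08 over the members and 0.06 over all genes. None passed the test, where 0.00446% of all genes passed. Without overlap 11 members were lower in clone 2, among them TTR, APOA2, APOC1, APOE, FGB and CEBPA, where 15.6% of all genes were. Without the first library of clone 2, which lay close to those of clone 1, the estimates were -2.82 ± 0.45 for APOA1, -3.53 ± 0.77 for ALB and -0.77 ± 0.15 for APOE. Clone 2 is then only the library singled out by the members' own low values, so that fit is no test of a clone difference. Without the second library of clone 2 instead, no member passed (lowest limma adjusted p = 0.653), where 0.018% of all genes did. The estimate was then above 0 for 12 members, among them ALB (0.55 ± 0.77) and TF (0.60 ± 0.56), and below 0 for 24, among them APOA1 (-0.34 ± 0.45) and APOE (-0.15 ± 0.15).

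The authors' deposited table for hepatic clone 1 against CTR calls 2 of 37 members higher, KNG1 with a log2 fold change of 4.168 ± 1.242 (DESeq2 adjusted p = 0.0376) and AGT with 1.493 ± 0.4463 (DESeq2 adjusted p = 0.0386), where 2.60% of all its genes pass. In the authors' deposited table for clone 2 none of the 37 members passes, where 2.66% of all genes do, and the fold changes are positive for 28 of 37. ALB has a log2 fold change of 2.625 for clone 2 and 3.215 for clone 1 in the authors' deposited tables. Both tables use the same CTR libraries.

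Between days 17 and 21 of WT hepatic culture in PN96 the fibrinogen genes FGG and FGA had the largest positive estimates, and no member passed the test. FGA read 341 and 163 TPM at day 21, against 63.3 and 110 TPM at day 17, a log2 difference of 1.49 ± 0.56 (limma adjusted p = 0.320). FGG read 80.7 and 40.9 TPM at day 21, against 16.9 and 20.7 TPM at day 17, a difference of 1.57 ± 0.65 (limma adjusted p = 0.355). MTTP, at 16.2 and 10.02 TPM at day 21 against 19.1 and 27.1 TPM at day 17, had the lowest adjusted p (-0.79 ± 0.27, limma adjusted p = 0.279). None of 36 members passed, where 0.134% of all genes did, and 3 had an unadjusted p under 0.05. AFP overlapped between the days, at 4227 and 1951 TPM at day 21 and 1962 and 3571 TPM at day 17, and so did ALB, at 20.8 and 7.72 TPM at day 21 and 10.6 and 23.9 TPM at day 17. The second library of day 21 was the lower for 28 of the 33 members that reached 1 TPM in either library of that day. Without overlap 4 members were higher at day 21, where 26.3% of all genes were, and 4 were lower, where 20.0% were. No gene of the other lists passed. Among the calls over all genes 40.0% were higher as deposited and 25.0% after scaling the libraries by size factors, and 17 members had a positive sign under both.

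The format comparison set WT Chip beside WT PN96 at day 17. TTR read 986 and 1027 TPM in Chip, against 214 and 331 TPM in PN96, a log2 difference of 1.92 ± 0.52 (limma adjusted p = 0.0741). APOA2, the second protein of high density lipoprotein, read 2365 and 2395 TPM in Chip, against 480 and 1032 TPM in PN96, a difference of 1.76 ± 0.52 (limma adjusted p = 0.0908). APOC1, a small apolipoprotein, read 368 and 369 TPM in Chip, against 141 and 203 TPM in PN96, a difference of 1.12 ± 0.33 (limma adjusted p = 0.0905). In each of these 3 the groups did not overlap. APOA4 lay the other way, at 38.0 and 44.5 TPM in Chip, against 57.3 and 142 TPM in PN96 (-1.11 ± 0.78). AFP overlapped, at 2765 and 3140 TPM in Chip and 1962 and 3571 TPM in PN96.

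None of 36 members passed this test, where 3.61% of all genes passed, and 6 had an unadjusted p under 0.05. Without overlap 16 members were higher in Chip, where 12.3% of all genes were, and 7 were lower, where 49.9% were. The median difference was 0.21 over the members and -0.22 over all genes, and scaling by size factors raised all differences by a median of 0.21, which left 25 members with a positive sign, against 23 as deposited. Among the calls over all genes 13.4% were higher as deposited and 43.6% after that scaling. With the spread estimated on these 4 libraries alone, 7 members rose: TTR, APOA2, APOC1, APOE, FGG, F10 and CEBPA, where 11.7% of all genes passed and 1.61% were higher. Beside this, the collagen gene COL1A1 fell, stroma genes summed to 1685 and 1606 TPM in Chip, against 5798 and 2352 TPM in PN96, and the bile duct regulator SOX9 fell. FOXA2 rose by 1.11 ± 0.17 and GATA6 fell by 1.34 ± 0.30. Mitochondrial mRNAs took 26.9% and 27.9% of all TPM in Chip, against 17.7% and 17.4% in PN96. The part of that share and of these genes' cells in the members' differences was not tested.

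CTR and WT at day 21 share the PN96 label, and the genotype label and the culture run, which no label gives, cannot be told apart. CEBPA read 68.3 and 62.0 TPM in CTR, against 35.2 and 19.2 TPM in WT, and rose by 1.29 ± 0.30 (limma adjusted p = 0.0402). It was the only one of 36 members to pass, where 6.14% of all genes passed and 2.59% were higher. That call was lost without the second WT library (limma adjusted p = 0.228), without the first CTR library (limma adjusted p = 0.211) and without the second (limma adjusted p = 0.131). APOA4 read 470 and 1087 TPM in CTR, against 263 and 120 TPM in WT (2.0 ± 0.78, limma adjusted p = 0.146), and F2, prothrombin, read 22.2 and 26.0 TPM in CTR, against 9.94 and 6.07 TPM in WT (1.51 ± 0.41, limma adjusted p = 0.0614). The log2 difference was 1.19 for AFP and 1.80 for ALB, and neither passed. The estimate was positive for 34 of 36 members, with a median of 0.84 over the members and -0.05 over all genes. Without overlap 25 members were higher in CTR, where 26.0% of all genes were, and CP was lower, where 34.5% were. Among the calls over all genes 42.2% were higher as deposited and 55.5% after scaling by size factors. Beside this, FOXA2, TBX3, KRT19 and SOX9 rose in CTR and ONECUT1 fell. Pluripotency genes summed to 1028 and 1189 TPM in CTR, against 1777 and 3057 TPM in WT. Their part in the result was not tested, and this comparison shares its CTR libraries with the knockout comparison.

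In nephron CTR at day 13 some members were read at moderate levels, with APOE, APOA1, AFP, APOC1 and VTN the highest. AFP read 72.9 and 49.8 TPM in CTR at day 13, against 1.12 and 0.230 TPM in WT at day 7, and rose by 5.25 ± 0.42 (limma adjusted p = 2.11e-07). APOA1 read 194 and 118 TPM in CTR at day 13, against 0.727 and 1.34 TPM in WT at day 7, and rose by 6.24 ± 0.37 (limma adjusted p = 1.03e-08). PROX1 lay the other way, at 9.18 and 8.17 TPM in CTR at day 13, against 73.2 and 46.6 TPM in WT at day 7, and fell by 2.62 ± 0.30 (limma adjusted p = 7.16e-06). Of 33 members tested 20 rose and PROX1 fell, where 35.9% of all genes passed, 27.6% higher and 8.29% lower. Of the apolipoproteins 7 of 8 rose, of the clotting genes 5 of 7 and of the carriers 3 of 9. ALB read at most 1.30 TPM in any nephron library, with a difference of 0.13. The day and the genotype label cannot be told apart here. Without the first CTR library 13 members passed, where 25.9% of all genes did.

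Against hESC CTR, 22 members rose in nephron CTR and 3 fell (CP, APOE and C3), where 53.6% of all genes passed, 37.3% higher and 16.3% lower. Size factor scaling lowered all differences by a median of 0.25 in that comparison and of 0.15 in the comparison of days. Among the calls over all genes against hESC CTR, 69.7% were higher as deposited and 53.1% after scaling, and between the days 76.9% as deposited and 61.9% after scaling. Beside the comparison of days, 10 of 14 liver transcription factors rose, among them HNF4A, along with 5 of 6 nephron, 5 of 8 stroma, 6 of 6 endothelial and 4 of 8 visceral endoderm genes. The nephron list summed to 127 and 222 TPM in CTR at day 13 and 31.3 and 41.6 TPM in WT at day 7. It summed to 788 and 852 TPM in hESC CTR and 354 to 789 TPM over the hepatic libraries. Mitochondrial mRNAs took 10.1% and 10.8% of all TPM in CTR at day 13, against 19.1% and 18% in WT at day 7. The part of these genes and of that share in the members' levels was not tested. These comparisons and the nephron knockout comparison share the 2 CTR libraries of day 13.

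In the nephron knockout every member that passed the test fell. AFP read 14.7 and 16.3 TPM in clone 2 and 14.8 and 17.3 TPM in clone 1, against 72.9 and 49.8 TPM in CTR, and fell by 1.87 ± 0.40 (limma adjusted p = 0.00658). APOE read 222 and 221 TPM in clone 2 and 199 and 229 TPM in clone 1, against 423 and 522 TPM in CTR, and fell by 1.11 ± 0.21 (limma adjusted p = 0.00216). CEBPA read 8.92 and 9.69 TPM in clone 2 and 6.60 and 10.5 TPM in clone 1, against 18.4 and 20.0 TPM in CTR, and fell by 1.04 ± 0.27 (limma adjusted p = 0.0253). In these 3 genes no knockout library reached a CTR library. APOA4 fell by 1.80 ± 0.48 (limma adjusted p = 0.0285), APOB by 1.04 ± 0.29 (limma adjusted p = 0.0378) and F10, clotting factor X, by 0.81 ± 0.23 (limma adjusted p = 0.0427). These 6 of 36 members fell and none rose, where 6.29% of all genes passed and 4.67% were lower. The estimate was negative for 32 of 36 members, with a median of -0.61 over the members and -0.03 over all genes, and 14 were lower without overlap, where 20.1% of all genes were.

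The count rests on single libraries: without the first CTR library 1 member passed, APOE, where 3.66% of all genes did. Without the second CTR library AFP, TTR and APOB passed, where 2.5% of all genes did, and without any 1 knockout library 2 or 3 members passed. AFP passed in each of these fits except the one without the first CTR library. The authors' deposited table for nephron clone 1 calls 4 of 29 members, all lower: APOA4 (-3.963), APOE (-1.124), F10 (-1.056) and CEBPA (-1.153), where 12.4% of all its genes pass. In the authors' deposited table for clone 2 none of 25 members with an adjusted p passes, where 3.77% of all genes do, and APOE has a log2 fold change of -1.045 (DESeq2 adjusted p = 0.0721).

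Other cell types differed in the same libraries. Stroma genes summed to 1302 to 1982 TPM in the 4 nephron knockout libraries, against 4082 and 5697 TPM in CTR, and 5 of 8 fell, led by DCN (-2.48 ± 0.49) and LUM (-1.96 ± 0.42), both matrix proteoglycans. Endothelial genes summed to 34.2 to 78.7 TPM in knockout libraries, against 198 and 192 TPM in CTR, and 5 of 6 fell, led by the receptors KDR (-2.14 ± 0.40) and TEK (-2.04 ± 0.30). GATA6 and GATA4, shared by heart, gut and yolk sac lineages, fell by 2.01 ± 0.23 and 1.11 ± 0.22. Their part in the members' fall was not tested.

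In lung organoids few members were read beyond APOE and APOC1. APOE read 1189 and 999 TPM in clone 2, 1037 and 1408 TPM in clone 1 and 779 and 1486 TPM in CTR at day 19, and 510 and 325 TPM in WT at day 20. AFP reached at most 2.45 TPM in any lung library. Of the lung list, NKX2-1 (0.85 ± 0.27) and SOX9 rose in lung CTR against hESC CTR and SCGB3A2 fell, and the surfactant genes SFTPB and SFTPC were too low to be tested. The lung list summed to 59.5 and 145 TPM in lung CTR, against 182 and 170 TPM in hESC CTR. Pluripotency genes summed to 1510 and 2342 TPM in lung CTR, against 3795 and 4023 TPM in hESC CTR. In lung CTR against hESC CTR 3 members rose, PROX1 (2.66 ± 0.25), C3 (1.51) and APOC1 (0.92), where 42.7% of all genes passed and 21.7% were higher. In lung CTR at day 19 against WT at day 20, APOE rose by 1.40 ± 0.29 (limma adjusted p = 0.00399), PROX1 and C3 rose and APOA1 fell by 1.31 (limma adjusted p = 0.0232), where 17.5% of all genes passed, 6.3% higher and 11.2% lower. The day and the label cannot be told apart in that comparison, and among the calls over all genes 36.0% were higher as deposited and 46.7% after scaling. In the lung knockout none of 36 members passed, where 0.0808% of all genes did, none had an unadjusted p under 0.05, and the lowest adjusted p was 0.851 (limma). In the authors' deposited tables for lung, too, no member passes for either clone, where 0.0894% of all genes pass for clone 2 and 0.0552% for clone 1.

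Whether the knockout difference of the members was larger in hepatic than in lung organoids was tested directly. The hepatic minus lung difference was positive for 33 of 36 members and passed for none, where 0.384% of all genes passed, and PLG had the lowest adjusted p (2.14 on the log2 scale, limma adjusted p = 0.104). At an unadjusted p under 0.05 there were 16 members. Without the second library of hepatic clone 2 it passed for 23 members, all higher in hepatic organoids, where 4.82% of all genes passed and 2.30% were higher. That library was singled out by the members' own low values, so the fit without it is no test of the members. With all libraries, 21.1% of the calls over all genes were higher as deposited and 32.6% after scaling.

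The long cortical cultures gave one more place where members were read. In the SPIN format at day 60 TTR read 51.7 and 1536 TPM, against 0.717 and 0.572 TPM in PN96 at day 53, and rose by 7.44 ± 0.95 (limma adjusted p = 1.03e-05). AFP read 25.4 and 12.9 TPM in SPIN, against 0.731 and 0.259 TPM in PN96, and rose by 3.70 ± 0.42 (limma adjusted p = 3.15e-06). APOA2 read 21.1 and 14.2 TPM in SPIN, against 0 and 0.439 TPM in PN96, and rose by 3.93 ± 0.63 (limma adjusted p = 9.93e-05). The TTR values of the 2 SPIN libraries lie far apart, and those of AFP and APOA2 do not. ALB read 1.57 and 19.0 TPM in SPIN, against 0.227 and 0.121 TPM in PN96, and rose by 2.61 ± 0.69 (limma adjusted p = 0.00601). APOE fell by 1.83 ± 0.29 (limma adjusted p = 0.000105), with 12.9 and 11.3 TPM in SPIN, against 46.2 and 44.5 TPM in PN96. PROX1 read 12.4 and 13.8 TPM in SPIN, against 3.89 and 2.60 TPM in PN96, and CP 6.28 and 8.10 TPM in SPIN, against 1.93 and 2.05 TPM in PN96, and both rose.

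Of 33 members tested 16 rose and APOE fell, where 40.6% of all genes passed, 18.9% higher and 21.8% lower. Without overlap 23 members were higher in SPIN, where 32.8% of all genes were, and 3 were lower, where 31.5% were. Without the second SPIN library 11 passed, 10 of them higher, where 36% of all genes passed and 15.6% were higher. In that fit TTR rose by 5.0, AFP by 4.16 and APOA2 by 4.2, and ALB was lost (1.13, limma adjusted p = 0.136). The format and the day cannot be told apart. Beside these values, a choroid plexus list added after TTR was seen had 8 of 10 genes higher in SPIN and summed to 55.9 and 353 TPM, against 47.7 and 32.2 TPM in PN96. The same list summed to 177 and 244 TPM in cortical CTR at day 19 and to 208 and 502 TPM in nephron CTR. Such sums are thus not particular to SPIN. Stroma genes summed to 439 and 3221 TPM in SPIN, against 60.5 and 61.7 TPM in PN96, with 5 of 8 higher. Endothelial genes summed to 16.1 and 90.8 TPM in SPIN, against 2.52 and 1.07 TPM in PN96, with 4 of 6 higher. Neural genes summed to 584 and 593 TPM in SPIN, against 1808 and 1825 TPM in PN96, with 4 of 7 lower. Of 14 liver transcription factors HHEX, GATA6 and TBX3 rose, and HNF4A averaged 0.148 TPM in SPIN. Their part in the members' rise was not tested.

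**Figure D5:**
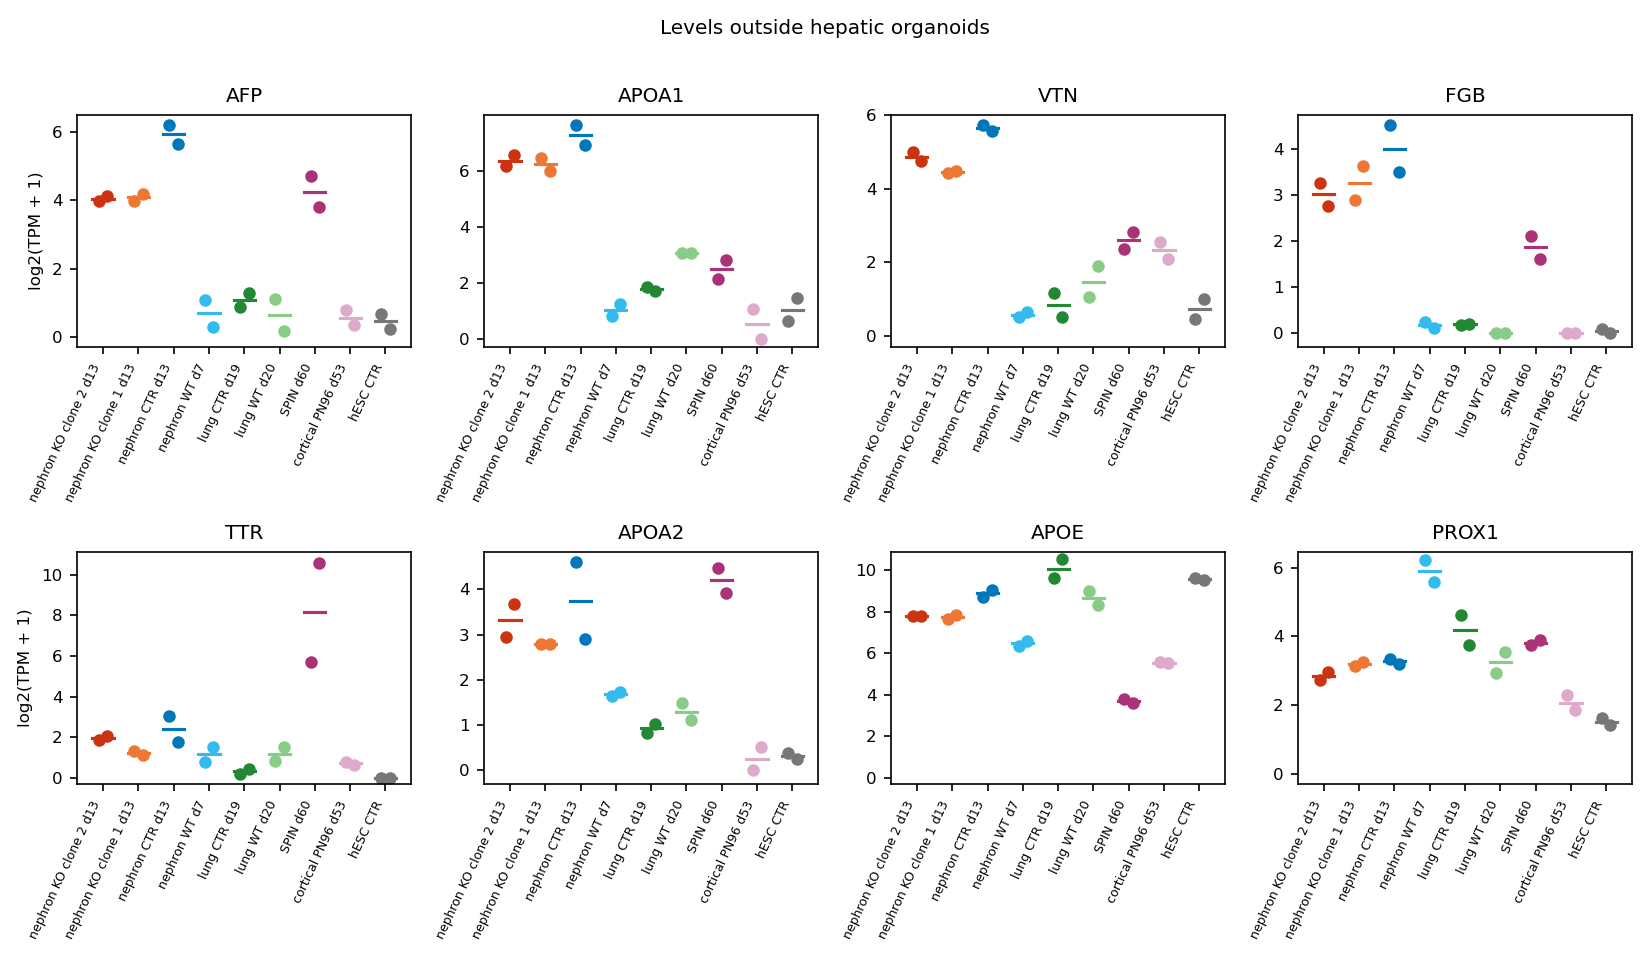
log2(TPM + 1) of AFP, APOA1, VTN, FGB, TTR, APOA2, APOE and PROX1 in nephron, lung, cortical SPIN and PN96, and hESC libraries, each point a library and each line the mean of 2. AFP and APOA1 are high in nephron CTR at day 13, and TTR in 1 SPIN library.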

How the data were processed

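Bulk polyA RNA-seq was measured on 62 libraries of the stem cell line WIBR3 and organoids made from it. The tools named in the submitters' processing notes are FastQC 0.11.9, Trim Galore 0.6.7, cutadapt 4.1, STAR 2.7.10a, featureCounts 2.0.1 and DESeq2 1.36.0, with build hg38, and whether counting used strand is not given in the sources used here. The authors deposited TPM values, which are scaled for gene length and library total and keep no depth. The authors' deposited tables for each knockout clone against CTR give a log2 fold change, a standard error (treated as a score), a p-value with its adjusted p-value, and a mean signal of size-factor-normalized counts that was not used here. Their direction was read from the sign of NEAT1.

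The members and the pathway and cell type lists were chosen with earlier results of these data known, and the choroid plexus list was added after TTR was seen in SPIN. All members may be named. From the other lists, up to 4 called genes with the largest change may be named in a comparison. Other genes named for label checks or beside a count were chosen after their values were seen. Results of some list genes are not reported here. Groups follow the labels, which give no batch.

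limma 3.58.1 (R 4.3.3) was run on log2(TPM + 1), with a pseudocount of 1 and a mean-variance trend, over genes at 1 TPM or more in at least 2 libraries of the fit. A fold change on this scale understates that of low genes. The hepatic fit held 12 libraries and 22406 genes, the knockout fit (CTR and both clones of hESC and all tissues) 30 libraries and 24744 genes, and the fit of WT and CTR organoids 24 libraries and 25280 genes, so a comparison shares its estimate of spread with the other groups of its fit. Tests were two-sided, with Benjamini-Hochberg adjustment over all genes tested and a threshold of 0.05, in 15 comparisons. Tested on simulated data with 200 changed genes, the hepatic knockout comparison (22406 genes) recovered 55% of changes of 2-fold and 92% of changes of 4-fold. The changed genes were drawn only from those above a set mean level. Simulated noise was independent between genes and held no shift shared by many members, such as that of the second clone 2 library. These percentages therefore do not give the recovery for the members. Positions follow GENCODE v29 and promoters RefSeq. Alternatives were a pseudocount of 0.1, no filter, rescaling by size factors, the replicate number as a block, the compared groups alone, clones pooled or alone, and leaving out each library.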

Additional observations from a re-analysis of the deposited data

Results flagged for a closer look

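The knockout difference of TF, the iron carrier, had opposite signs in 2 tissues, with all knockout libraries of lung organoids above CTR and all of nephron organoids below. TF read 0.189 to 0.297 TPM in lung knockout libraries, against 0.137 and 0.0498 TPM in lung CTR, and 0.108 to 0.156 TPM in nephron knockout libraries, against 0.186 and 0.225 TPM in nephron CTR. The lung minus nephron difference was 0.26 on the log2(TPM + 1) scale. The difference between the tissues was not tested, and all these levels are far below 1 TPM.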

How the results depend on the processing

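Counts of members called depended most on single libraries. Leaving out 1 library gave 0 to 21 calls for the hepatic knockout (21 without the second library of clone 2), 0 to 27 for clone 2 against clone 1 (27 without the first library of clone 2) and 0 to 23 for the hepatic minus lung knockout difference. For that difference 23 came without the second library of hepatic clone 2, and 1 each without the first library of that clone and without the second hepatic CTR library. The same step gave 0 to 1 for hepatic CTR against WT, 1 to 3 for the nephron knockout, 0 to 1 for the lung knockout (1 without the first CTR library) and 11 to 15 for SPIN against PN96. It gave 13 to 21 for nephron day 13 against day 7, 2 to 4 for lung CTR against hESC CTR, 1 to 4 for lung CTR against WT, 31 to 32 and 28 to 31 for hepatic CTR against hESC and lung CTR, and 20 to 22 for nephron CTR against hESC CTR. The day and format comparisons stayed at 0. Where a group is left with 1 library, it is assumed to vary like the other groups. The fit without the first library of clone 2 keeps only the library singled out by the members' own low values. Its count is no test of a clone difference.

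With the compared groups alone, calls were 7 for Chip against PN96, 2 for hepatic CTR against WT (F2 and APOC1, with CEBPA lost), 11 for SPIN against PN96 and 0 for lung CTR against WT. With a pseudocount of 0.1 they were 7 for lung CTR against hESC CTR, 2 for the nephron knockout and 2 for lung CTR against WT, and with no filter 0 for hepatic CTR against WT. The nephron knockout had 3 calls with clones pooled and 2 with clone 2 alone. The replicate block gave 2 calls for hepatic CTR against WT (CEBPA and F2) and moved no other count past 1.5 times. Replicate numbers come in pairs only and do not tie libraries together (correlations -0.246 to 0.323). For lung CTR against WT, fitted on its 4 libraries alone with a replicate block, crossed pairing gave 2 member calls and 2047 gene calls, against 0 and 0 as numbered. The cause of these shifts was not tested, beyond the fewer libraries in a fit. Of 5608 alternative values of single members 5356 kept sign and side of the threshold, 110 newly passed, 142 were lost and 0 reversed. Depth is unknown, so no counting limit can be given for low members such as APOH, KNG1 and ITIH3.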
